A study of Mus musculus with 4 samples.

Results

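The nuclear-encoded subunits of the oxidative phosphorylation machinery were followed across 4 RNA-seq libraries of mouse lung type 2 innate lymphoid cells (ILC2s). They were chosen by name alone, as every gene whose symbol begins with Ndufa, Ndufb, Ndufc, Ndufs or Ndufv and a digit, with Cox4 to Cox8, with Uqcr or with Atp5, together with Sdha, Sdhb, Sdhc and Sdhd. Of the 49315 genes in the count table, 83 were members, after 6 matching pseudogenes were left out. Complex I had 35 members, complex II 4, complex III 8, complex IV 20 and complex V 16.

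Each group was a single library. PBS-WT and BLEO-WT came from C57BL/6 wild-type mice given PBS or bleomycin, and PBS-HPS1 and BLEO-HPS1 from Hps1-/- mice, a model of Hermansky-Pudlak syndrome type 1, given the same. Bleomycin injures the lung and is used to bring on fibrosis. Lineage- Thy1.2+ ICOS+ T1/ST2+ cells were sorted from the lungs and cultured with IL-2 before RNA was extracted. The number of mice behind each library, their age and the bleomycin route and time for these libraries are not given in the sources used here. With 1 library per group there was no replicate check and no test of any difference between conditions, so each value below describes these libraries.

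Oxidative phosphorylation is carried out by 5 complexes of the inner mitochondrial membrane. Complexes I and II take electrons from NADH and succinate, complex III passes them to cytochrome c, complex IV hands them to oxygen, and complex V, the ATP synthase, makes ATP from the proton gradient that complexes I, III and IV build. Most subunits are encoded in the nucleus and imported, whereas a small set is encoded by the mitochondrial genome. Several nuclear subunits exist as a common form and a form restricted to certain tissues or induced by low oxygen.

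The libraries held 72513619 (WT) and 77703133 (Hps1-/-) counted reads with PBS, and 87638154 and 77428740 with bleomycin, from 22405, 38873, 84166 and 128647 cells in the same order. TMM factors, which scale libraries to each other, ran from 0.816 to 1.27 and were lowest in BLEO-HPS1. The ILC2 label was checked against 10 markers, of which 9 passed the filter and Ptgdr2 (CRTH2), at 0.301 to 0.818 CPM (reads scaled to library size), did not. Gata3, the lineage's transcription factor, was at 25.1 to 39.1 CPM, and Il7r at 76.9 to 205 CPM, lowest in BLEO-HPS1, while Thy1 was at 206 to 551 CPM and highest there. Summed ILC2 markers lay between 760 and 914 CPM, highest in BLEO-HPS1, where Thy1 made up 551 of 914 CPM. Without Thy1 the other 9 summed to 578 (WT) and 579 (Hps1-/-) CPM with PBS, and 537 and 364 with bleomycin, so BLEO-HPS1 was then the lowest. Rora, a transcription factor of the lineage, was at 63.9, 78.4, 25.2 and 13.2 CPM, and Icos and Il1rl1 (ST2), both used in the sort, were also lowest in BLEO-HPS1, at 32.1 and 23.8 CPM. Klrg1 was highest there instead, at 35.6 CPM, and Gata3, Il2ra and Id2 had their lowest level in other libraries. Markers of other cells were present too. All 7 fibroblast markers were detected, and their summed level was 166 CPM in WT and 303 in Hps1-/- cells with PBS, and 544 and 2716 after bleomycin. Summed macrophage markers (5 of 6 were in the table) lay between 1469 and 3159 CPM, the 4 T cell markers between 278 and 605, the 4 B cell markers between 63.7 and 265 and the 10 mural markers between 46.9 and 144. The 8 striated muscle markers summed to 7.40 to 12.9 CPM and the 4 testis markers stayed under 1 CPM in sum. In bulk RNA, fewer cells of a type and less RNA per cell cannot be told apart. The summed fibroblast, B cell, T cell, mural and muscle markers were each highest in BLEO-HPS1, as were most subunits, whereas the summed macrophage markers were highest in BLEO-WT. Adgre1, Cd68 and Mrc1 were highest in BLEO-WT, but Csf1r was highest in BLEO-HPS1, at 1603 CPM, and Marco in PBS-HPS1, at 81.6. Single mural and muscle markers also departed from their sums. The Lineage gate of the sort covered CD3, CD11b and CD45R/B220, which T cells, myeloid cells and B cells carry. The part of these cells in the subunit values was not tested.

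Most of the set had the same profile. The subunits took up 0.730% (WT) and 0.632% (Hps1-/-) of all reads with PBS, and 0.833% and 1.16% with bleomycin. Of the 83 members, 80 reached 1 CPM in at least 1 library and were compared. The order from lowest to highest CPM of PBS-HPS1, PBS-WT, BLEO-WT and then BLEO-HPS1 held in 68 of the 80 and in 27.7% of all 14840 compared genes. BLEO-HPS1 was the highest library for 72 members and PBS-HPS1 the lowest for 74. With libraries scaled by total reads only, the counts for the full order, the highest and the lowest library were 62, 70 and 67. A share over all compared genes was computed only for the full order under TMM. The other counts therefore have no background and describe the members alone. Among themselves the subunits kept nearly the same ranking: the Spearman correlation of their CPM per kilobase ranged from 0.926 (PBS-HPS1 with BLEO-HPS1) to 0.995 (PBS-WT with PBS-HPS1) over 80 genes that share each library.

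**Figure D1:**
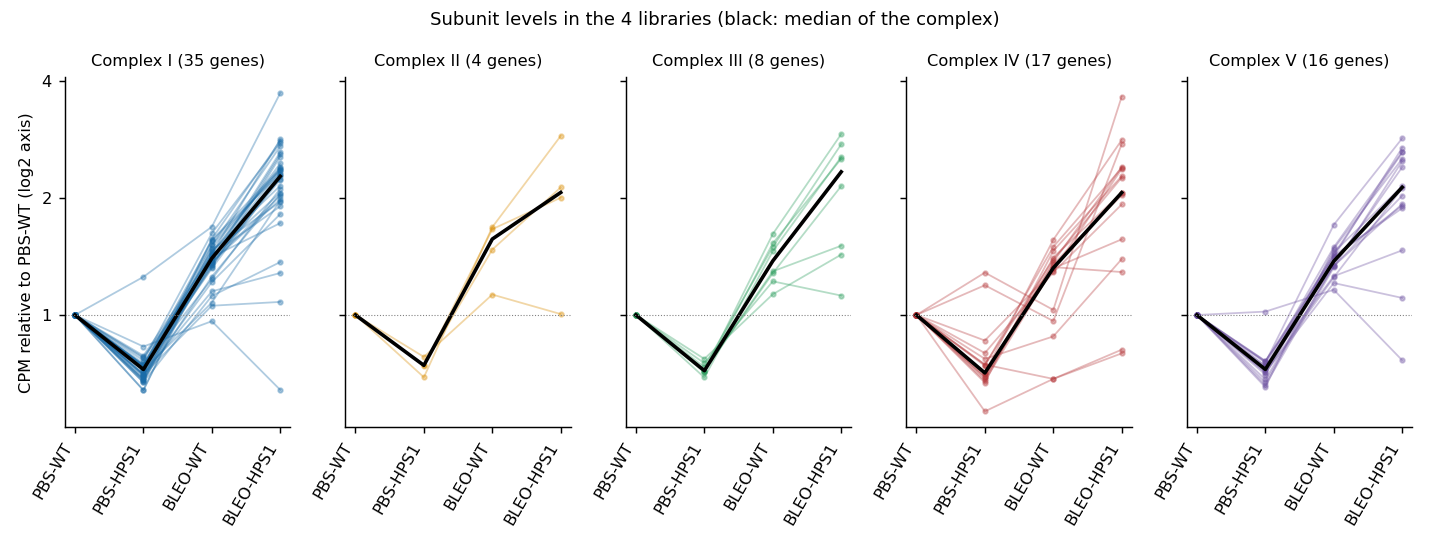
Level of each subunit in the 4 libraries, as CPM divided by the CPM in PBS-WT on a log2 axis, by complex. Each coloured line is a gene and the black line is the median of the complex. Most lines dip in PBS-HPS1 and are highest in BLEO-HPS1.

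Ratios below are log2 ratios between a pair of libraries after subtraction of the median over all compared genes, so that 0 is the typical gene and the choice of library scaling nearly drops out. A gene was called higher or lower when it lay at least 1.5-fold from that median. Between BLEO-HPS1 and BLEO-WT the subunits had a median of 0.71 (SD across genes 0.37, n = 80 genes). In this comparison 55 members were called higher, against 21.4% of all compared genes, and 0 were called lower, against 23.6%. At the stricter limit of 2-fold, 4 members were higher (Ndufa4l2, Cox4i2, Ndufs5 and Ndufa11), against a background of 7.57%. The share past 1.5-fold was above the background and the share past 2-fold was not. Only Ndufs1, Sdha, Uqcrb, Atp5f1 and Atp5s lay below 0.

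The bleomycin comparison within Hps1-/- cells gave the largest values of the 4 comparisons. Between BLEO-HPS1 and PBS-HPS1 the median was 1.32 (SD 0.51), a 2.49-fold ratio. Here 72 of 80 members were called higher, against 31.6% of all compared genes, and 2, Ndufs1 and Atp5s, were called lower, against 34.0%. At 2-fold, 62 members were higher, against 18.6%. In wild-type cells the same treatment gave a smaller shift, with a median of 0.36 (SD 0.24) between BLEO-WT and PBS-WT. Here 6 members (Ndufa12, Ndufs5, Sdhb, Sdhd, Uqcrq and Atp5g1) were called higher, against 10.7% of all compared genes, and 2, Cox6a2 and Cox6b2, lower, against 19.3%. The share called higher was near the background there and the share called lower was below it, although 73 of 80 members lay above 0.

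Without bleomycin the genotypes stood the other way round. Between PBS-HPS1 and PBS-WT the median was -0.27, 0 members were called higher, against a background of 9.59%, and 1, Cox6a2, was called lower, against 4.94%. The pattern of being below the typical gene in PBS-HPS1 against PBS-WT and above it in BLEO-HPS1 against BLEO-WT was found in 72 of 80 members and in 30.4% of all compared genes. These 2 comparisons share no library. The bleomycin ratio in Hps1-/- cells minus that in wild-type cells had a median of 0.97, with 66 members at least 1.5-fold higher, against 26.0%, and 1, Atp5s, lower, against 27.9%. With GC content and transcript length corrected, as described below, this median was 0.28, with 9 members higher and 0 lower. Among all 14813 genes corrected the same way, 2404 were higher and 2697 lower.

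**Figure D2:**
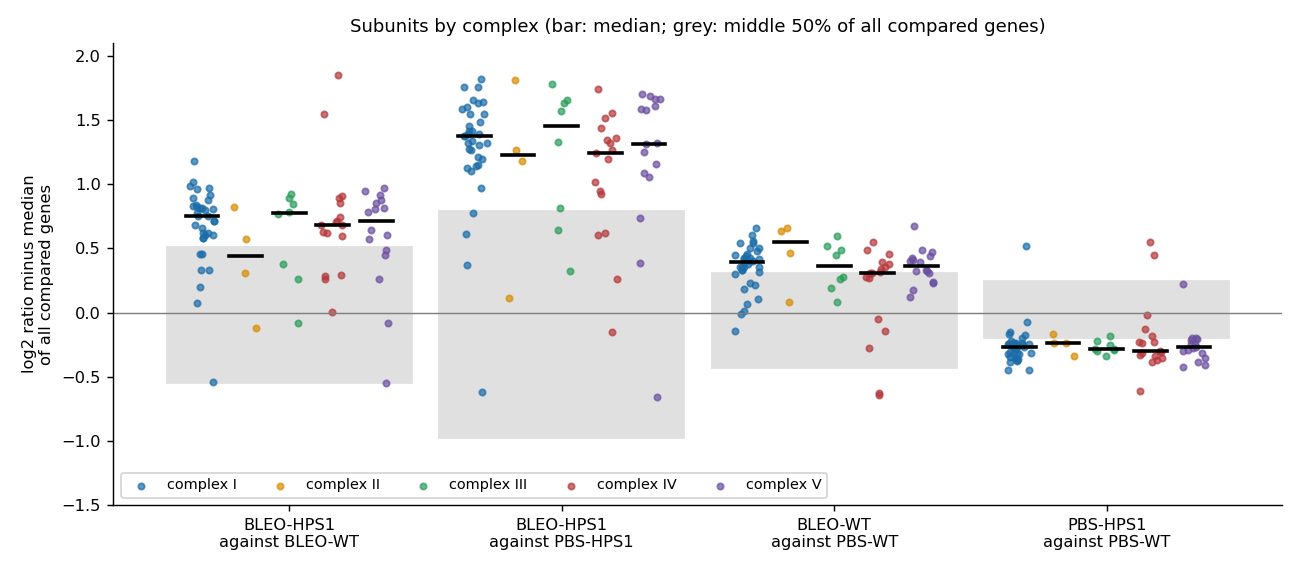
Log2 ratio of each subunit minus the median of all compared genes, for 4 comparisons and 5 complexes. Points are genes, black bars are medians, and grey boxes span the middle 50% of all compared genes. In both comparisons that start from BLEO-HPS1 most points lie above 0, and in PBS-HPS1 against PBS-WT most lie between 0 and -0.45.

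These values moved with base composition. Across all 14813 compared genes with an annotated transcript, GC content correlated with the ratio of BLEO-HPS1 to BLEO-WT (Spearman 0.548), and among the 80 subunits the correlation was 0.651, over genes that share both libraries. The 27 subunits with the lowest GC content had a median of 0.46, the middle 27 had 0.81 and the 26 with the highest had 0.84. With GC content and transcript length corrected by a loess curve fitted on all genes, the subunit median was 0.22 in place of 0.71 for BLEO-HPS1 against BLEO-WT, 0.50 in place of 1.32 for BLEO-HPS1 against PBS-HPS1, 0.21 in place of 0.36 for BLEO-WT against PBS-WT, and -0.08 in place of -0.27 for PBS-HPS1 against PBS-WT. Each of these medians kept its sign, and the members called higher in BLEO-HPS1 against BLEO-WT numbered 7 in place of 55, against 12.6% of all genes corrected the same way. They were Ndufc1, Ndufv2, Sdhc, Uqcrc2, Cox4i2, Ndufa4l2 and Atp5j2. None was called lower, against 12.6% of all genes. In BLEO-HPS1 against PBS-HPS1 the corrected count was 27 in place of 72, against 20.4%, with 2 lower, against 24.3%. In BLEO-WT against PBS-WT 4 were then higher, against 10.1%, and 2 lower, against 14.5%, and in PBS-HPS1 against PBS-WT 3 were higher, against 9.42%, and 0 lower, against 4.74%. Members above 0 numbered 67 in place of 75 in BLEO-HPS1 against BLEO-WT, against 7406 of 14813 genes. In PBS-HPS1 against PBS-WT they numbered 17 in place of 4, against the same 7406. The order over the libraries and the opposite genotype ratios above were counted without the correction. Of the called members, 3 took the other sign after correction in BLEO-HPS1 against BLEO-WT (Ndufs6, Cox6a1 and Cox8a) and 5 in BLEO-HPS1 against PBS-HPS1 (Ndufa5, Cox4i2, Cox7a1, Atp5j and Atp5s). Within the subunits, the corrected ratios of BLEO-HPS1 to BLEO-WT correlated with GC content the other way (Spearman -0.23). The value was -0.43 in BLEO-HPS1 against PBS-HPS1, -0.47 in BLEO-WT against PBS-WT and 0.15 in PBS-HPS1 against PBS-WT. The order of members after correction was thus not free of GC content. Subunit transcripts were also short, with a median length of 752 bases against 2684 for all compared genes. The correction also moved the 9 compared ILC2 markers, from a median of -0.58 to 0.11 in BLEO-HPS1 against BLEO-WT. In BLEO-HPS1 against PBS-HPS1 the median of these markers went from -0.79 to 0.25.

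**Figure D3:**
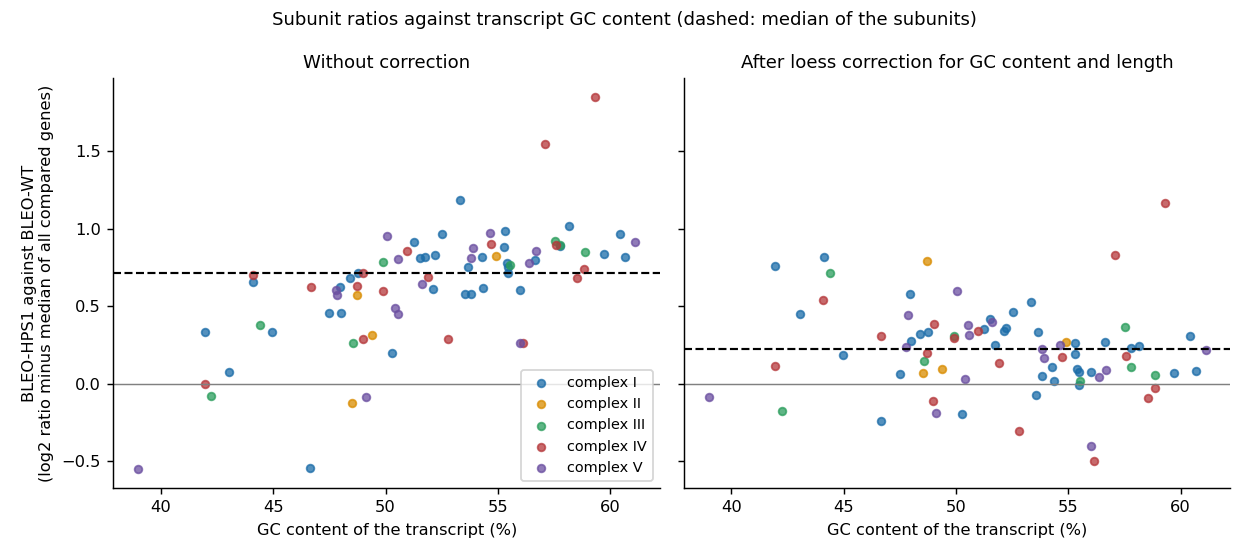
Log2 ratio between the bleomycin libraries (BLEO-HPS1 over BLEO-WT) minus the median of all compared genes, for each subunit against the GC content of its transcript in percent, before (left) and after (right) the loess correction. The dashed line is the subunit median, 0.71 on the left and 0.22 on the right.

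Complex I, the NADH dehydrogenase and the largest complex, had a median of 0.75 in BLEO-HPS1 against BLEO-WT. Of its 35 members, 26 were called higher, against 21.4% of all compared genes. Its membrane arm, which pumps protons, was taken here as all members outside the N and Q lists. These 20 members had a median of 0.76, with 17 called higher. The Q module, which reduces ubiquinone, had 0.75 over 5 and the N module, which oxidises NADH, 0.66 over 10. After the GC and length correction these medians were 0.29, 0.08 and 0.25. Calls higher then numbered 2 of 35 in the complex and 1 of 20 in the membrane arm, against 12.6% of all genes. Ndufv1, a core subunit which binds NADH, was at 86.1 CPM (WT) and 64.0 (Hps1-/-) with PBS, and 120 and 203 with bleomycin. It was lowest in PBS-HPS1 and highest in BLEO-HPS1, as were Ndufs3, Ndufs7, Ndufs8 and Ndufv2.

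Ndufs1, the largest core subunit, which carries iron-sulfur clusters of the N module (chr1:63143596-63176833), had a different profile. It was at 65.1 CPM in WT and 54.0 in Hps1-/- cells with PBS, and 62.7 and 41.8 after bleomycin, so BLEO-HPS1 was its lowest library. Its ratio was -0.54 against BLEO-WT (95% counting interval -0.61 to -0.47) and -0.62 against PBS-HPS1 (-0.69 to -0.55). After correction these were -0.24 and -0.20. Counting intervals cover counting error only, not differences between mice or preparations. Ndufs4, an accessory subunit of the same module, was nearly level between the bleomycin libraries, at 29.9 and 30.6 CPM, and its ratio there was 0.08 and after correction 0.45.

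Ndufs5, an accessory subunit of the membrane arm (chr4:123712710-123718202), differed from the rest of complex I in the PBS libraries. It was at 13.4 CPM (WT) and 16.8 (Hps1-/-) with PBS, and 22.6 and 49.8 with bleomycin. Its ratio was 0.52 in PBS-HPS1 against PBS-WT (interval 0.41 to 0.63), where the other 34 members of complex I lay below 0. In BLEO-HPS1 against BLEO-WT it had the highest ratio of the complex, 1.18, and after correction 0.52, below Ndufc1. Ndufa11, also of the membrane arm, had the highest ratio of BLEO-HPS1 to PBS-HPS1, at 1.82, with levels of 23.2, 15.6, 33.4 and 65.6 CPM. After correction it was at 0.53 there, and Ndufc1 was the highest. Ndufc2 was the lowest of the complex in PBS-HPS1 against PBS-WT, at -0.45.

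Complex II, the succinate dehydrogenase, is wholly nuclear-encoded and also works in the citric acid cycle. Its 4 members had unlike profiles. The iron-sulfur subunit Sdhb was at 87.2 CPM in WT and 60.4 in Hps1-/- cells with PBS, and 147 and 252 after bleomycin, a ratio of 1.81 between the Hps1-/- libraries. The catalytic flavoprotein subunit Sdha was at 267, 208, 301 and 269 CPM, with a ratio of 0.12 between the same libraries and -0.12 between the bleomycin libraries. Of the membrane anchors, Sdhc had a ratio of 0.57 and Sdhd of 0.31 in BLEO-HPS1 against BLEO-WT. Among the bleomycin libraries the highest and the lowest member of complex II thus differed by more than their counting intervals, 0.79 to 0.86 for Sdhb and -0.15 to -0.10 for Sdha. After correction the order was another, with Sdhc the highest at 0.79, Sdhb at 0.27 and Sdha at 0.07.

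Complex III, the cytochrome bc1 complex, had a median of 0.78 in BLEO-HPS1 against BLEO-WT. Of its 8 members, 5 were called higher, against 21.4% of all compared genes. The corrected median was 0.13, with 1 called higher, against 12.6%. Uqcrc1, a core protein on the matrix side, was at 134 CPM (WT) and 98.2 (Hps1-/-) with PBS, and 200 and 367 with bleomycin. Uqcrfs1, the Rieske iron-sulfur protein that passes electrons to cytochrome c1, was at 76.2, 54.9, 98.7 and 115 CPM. Uqcrc2, the second core protein, had a ratio of 0.38 and Uqcrb, a small subunit near the ubiquinone pocket, one of -0.08 in BLEO-HPS1 against BLEO-WT. Uqcrb was at 82.3 and 75.7 CPM in these libraries. Uqcrq, a further small subunit, had the highest ratio of the complex in BLEO-HPS1 against PBS-HPS1, 1.78, and after correction 0.46. Uqcrc2 was then the highest in both comparisons, at 1.10 there and at 0.71 between the bleomycin libraries.

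Complex V, the ATP synthase, held the most abundant members by summed reads, at 0.270% of all reads in PBS-WT and 0.418% in BLEO-HPS1. Its median was 0.71 in BLEO-HPS1 against BLEO-WT, with 10 of 16 members called higher, against 21.4% of all compared genes. The corrected median was 0.22, with 1 called higher, against 12.6%. The catalytic subunit Atp5b was at 669 CPM in WT and 510 in Hps1-/- cells with PBS, and 893 and 1354 after bleomycin. Atp5a1, its partner in the catalytic head, was at 574, 437, 816 and 1080 CPM, and Atp5c1, the central stalk, at 143, 97.6, 191 and 276 CPM. All 3 were lowest in PBS-HPS1 and highest in BLEO-HPS1. Atp5e, a small subunit of the central stalk, had the highest ratio of the complex between the bleomycin libraries, 0.97, which was 0.25 after correction. Atp5f1, of the peripheral stalk, was at 185 and 170 CPM there, a ratio of -0.08. Atp5s, known as ATP synthase coupling factor B, was at only 2.30, 2.34, 2.67 and 1.76 CPM. It was the lowest of the complex in 3 of the 4 comparisons, but not after correction, where its ratio was 0.26 in BLEO-HPS1 against PBS-HPS1, above Atp5j at -0.39, and 0.64 in BLEO-WT against PBS-WT, the highest of the complex.

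The c-ring, which turns as protons pass, is made from 1 mature protein encoded by Atp5g1, Atp5g2 and Atp5g3. In the reads of the 3 genes together, Atp5g3 made up 50.9% (WT; exact Clopper-Pearson 95% interval 50.2 to 51.6) and 51.4% (Hps1-/-; 50.7 to 52.1) with PBS, and 48.2% and 42.4% (41.9 to 42.9) with bleomycin. Atp5g2 made up 32.7%, 32.1%, 32.9% and 37.3%, and Atp5g1 16.4%, 16.5%, 18.9% and 20.3%. The make-up was alike in the PBS libraries, with overlapping intervals, and Atp5g3 had its smallest share in BLEO-HPS1. The GC and length correction brought the ratios of BLEO-HPS1 to BLEO-WT near each other, at 0.04 (Atp5g1), 0.09 (Atp5g2) and 0.03 (Atp5g3). Uncorrected they were 0.78, 0.86 and 0.49.

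Complex IV, the cytochrome c oxidase, had a median of 0.69 over 17 compared members in BLEO-HPS1 against BLEO-WT. Of these, 13 were called higher, against 21.4% of all compared genes. The corrected median was 0.18, with 2 called higher, against 12.6%. The common form of subunit 4, Cox4i1, was at 404 CPM (WT) and 287 (Hps1-/-) with PBS, and 630 and 1136 with bleomycin. Per kilobase it was the highest subunit of all in every library, at 542, 385, 845 and 1525 CPM per kilobase. Cox5b, a regulatory subunit of the matrix side, had a ratio of 0.72 between the bleomycin libraries, Cox5a, another, one of 0.29, and Cox7b, a small subunit, one of 0.00 at 69.9 and 67.9 CPM.

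Of the low-oxygen or tissue-restricted forms of complex IV, Cox4i2 and Ndufa4l2 were at low levels and were not lowest in PBS-HPS1. Cox4i2, the form of subunit 4 found mainly in lung and mural cells (chr2:152754173-152765037), was at 3.07 CPM in WT and 3.66 in Hps1-/- cells with PBS, and 2.96 and 8.42 after bleomycin. Between the bleomycin libraries its ratio was 1.54 (interval 1.33 to 1.78). Ndufa4l2, a hypoxia-induced relative of the complex IV subunit Ndufa4 (chr10:127514967-127517154), was at 1.74, 2.24, 1.80 and 6.35 CPM, with a ratio of 1.85 (1.58 to 2.15), the highest of all members. Both were higher in PBS-HPS1 than in PBS-WT, at 0.45 and 0.55, unlike most members. In BLEO-HPS1 against PBS-HPS1 they were at 0.95 and 1.24, and after correction at -0.25 and 0.09. The summed mural markers were 46.9, 58.9, 83.4 and 144 CPM in the same order of libraries. Of these sums, Cspg4 alone made up 6.07, 4.27, 33.1 and 17.0 CPM, and it was highest in BLEO-WT. Rgs5 was highest in PBS-WT, and the other listed mural markers were highest in BLEO-HPS1. The part of mural cells in Cox4i2 and Ndufa4l2 was not tested. Ndufa4 itself was at 54.8, 42.3, 48.3 and 76.2 CPM, so Ndufa4l2 made up 3.09%, 5.04%, 3.59% and 7.69% of the reads of the pair. The corrected ratio of BLEO-HPS1 to PBS-HPS1 was 0.39 for Ndufa4, above the 0.09 of Ndufa4l2. Between the bleomycin libraries the corrected ratios were 0.54 for Ndufa4 and 1.16 for Ndufa4l2.

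Cox6b2 and Cox6a2, forms known from testis and from muscle, were the members called lower in BLEO-WT against PBS-WT. Cox6b2, the testis form of subunit 6b, was at 15.1 CPM (WT) and 11.2 (Hps1-/-) with PBS, and 10.3 and 12.01 with bleomycin, while the common Cox6b1 was at 89.8, 61.6, 123 and 216 CPM. Its share of the reads of both was therefore 14.4%, 15.4%, 7.76% and 5.28%. Cox6a2, the heart and skeletal muscle form of subunit 6a, was at 1.32, 0.747, 0.906 and 1.08 CPM, which was 68 to 103 reads a library. It made up 0.722% of the reads of the Cox6a pair in PBS-WT and 0.262% in BLEO-HPS1. Cox7a1, the muscle form of subunit 7a, had the order common to most members, at 1.67, 1.43, 2.17 and 3.96 CPM, with a share between 3.27% and 4.18% beside Cox7a2. Cox7a2l, a relative of subunit 7a that takes part in supercomplexes, was at 199, 138, 279 and 409 CPM. The 3 members under the filter were Cox8b, with 9 to 24 reads, Cox7b2, with 6 reads in PBS-HPS1 and 0 in the other libraries, and Cox8c, with 2 reads in PBS-HPS1 and 0 elsewhere. A count of 0 allows up to 3 reads, which was 0.0303 to 0.0475 CPM across the libraries.

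**Figure D4:**
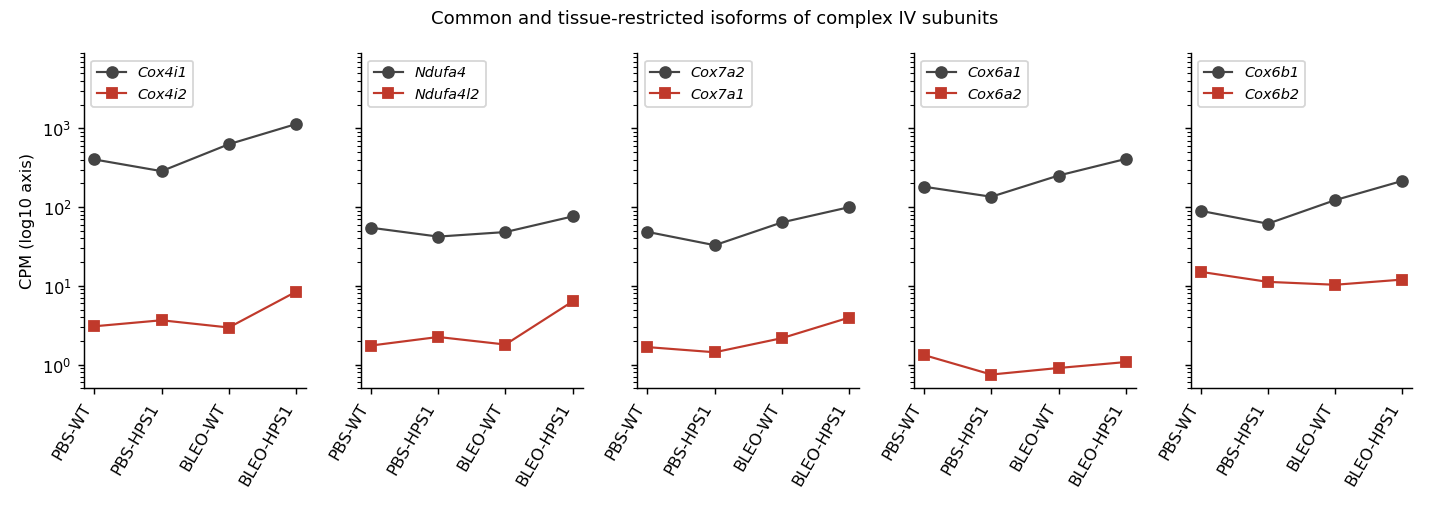
CPM on a log10 axis of 5 common complex IV subunits (grey circles) and their restricted relatives (red squares) in the 4 libraries. Cox4i2 and Ndufa4l2 stay near 2 to 4 CPM in the first 3 libraries and reach 8.42 and 6.35 in BLEO-HPS1, whereas Cox6b2 is highest in PBS-WT.

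**Figure D5:**
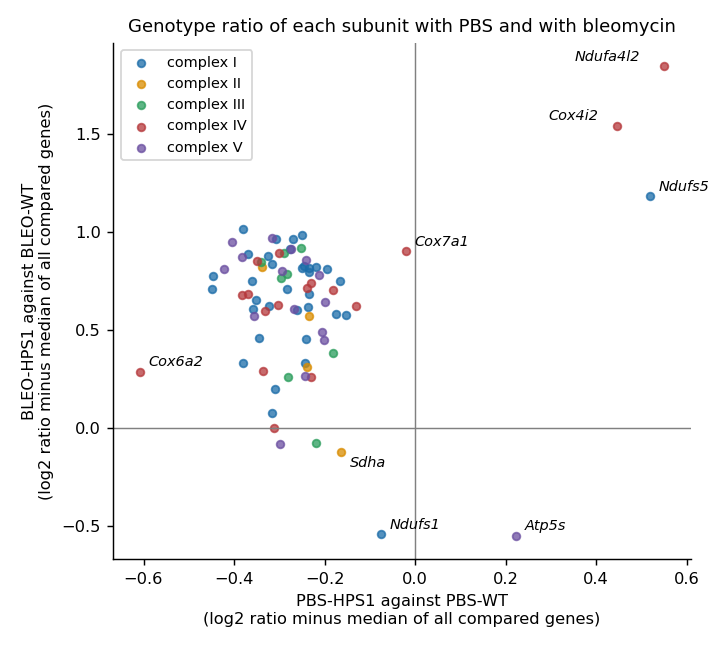
Ratio of Hps1-/- to WT for each subunit with PBS (horizontal) and with bleomycin (vertical), both as log2 ratio minus the median of all compared genes. Of 80 subunits, 72 lie in the upper left field, and Ndufs5, Cox4i2 and Ndufa4l2 lie at the upper right.

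Genes around the complexes were compared from fixed lists. Of the 13 subunits encoded by the mitochondrial genome, 12 were compared, and all 12 were called lower after bleomycin in both genotypes, against 19.3% of all compared genes in WT and 34.0% in Hps1-/- cells. The median was -1.24 in BLEO-WT against PBS-WT and -1.56 in BLEO-HPS1 against PBS-HPS1, and between the bleomycin libraries it was -0.60, with 7 called lower, against 23.6%. After correction these medians were -0.61, -0.56 and -0.18, and 7, 5 and 1 were called lower, against 14.5%, 24.3% and 12.6%. The most abundant, mt-Co1, which encodes the catalytic subunit of complex IV, was at 9930 CPM in WT and 7672 in Hps1-/- cells with PBS, and 4816 and 3091 after bleomycin. The nuclear Cox4i1, of the same enzyme, was at its highest where mt-Co1 was at its lowest. The list as a whole held 1.97%, 1.78%, 0.756% and 0.453% of reads. Some of its genes, among them mt-Co2, mt-Co3 and mt-Atp6, were under 3 CPM, and how reads with a nuclear copy were counted is not given in the sources used here.

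Of 4 further subunits and carriers outside the naming rule, Cyc1, the cytochrome c1 of complex III, had a ratio of 0.66 between the bleomycin libraries, Usmg5 of complex V 0.69, Ndufab1 of complex I 0.55 and the carrier Cycs, cytochrome c, 0.04. After correction the order turned round, with Cycs at 0.73, Ndufab1 at 0.69, Usmg5 at 0.43 and Cyc1 at 0.14. The 77 compared mitochondrial ribosomal proteins had a median of 0.55 in BLEO-HPS1 against BLEO-WT, with 35 called higher and 1 lower, against 21.4% and 23.6% of all compared genes. The 45 assembly factors, which build the complexes, had 0.24, with 14 higher and 1 lower, and the 14 citric acid cycle enzymes 0.38, with 3 higher and 2 lower. Outside mitochondria, the 16 glycolytic enzymes had 0.58, with 7 higher and 1 lower, and the 87 cytosolic ribosomal proteins 0.86, with 72 higher. The cytosolic ribosomal proteins, also short transcripts, thus had a median above that of the subunits, and theirs after correction was 0.36 against 0.22, with 12 called higher. The corrected medians were 0.20 for mitochondrial ribosomal proteins, with 18 higher, 0.20 for assembly factors, with 4, 0.23 for the citric acid cycle, with 1, and 0.22 for glycolysis, with 0, against 12.6%. In BLEO-HPS1 against PBS-HPS1 the calls were 58 higher and 3 lower for mitochondrial ribosomal proteins, 22 and 3 for assembly factors, 9 and 2 for the citric acid cycle, 13 and 0 for glycolysis and 79 and 0 for cytosolic ribosomal proteins, against 31.6% and 34.0% of all compared genes. After correction the calls higher were 28, 12, 6, 13 and 39 in the same order of lists, against 20.4%.

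Regulators of these genes had other profiles. Of 11 compared, 0 were called higher and 4 (Ppargc1b, Gabpa, Yy1 and Tfb2m) lower in BLEO-HPS1 against BLEO-WT, with a median of -0.26, against 23.6% of all compared genes called lower. After correction 3 were called lower, Ppargc1b at -1.31, Myc at -0.86 and Gabpa at -0.60, against 12.6%, while Yy1 was at -0.39 and Tfb2m at -0.23. Gabpa, the DNA-binding part of NRF-2, was at 58.1 CPM (WT) and 54.4 (Hps1-/-) with PBS, and 39.7 and 18.8 with bleomycin. Nrf1, which binds many subunit promoters, was at 49.3, 40.8, 49.1 and 55.1 CPM, and Esrra, an orphan nuclear receptor of energy metabolism, at 61.2, 48.5, 82.6 and 111 CPM. The coactivator Ppargc1a stayed under 1 CPM in every library.

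Since most members had 1 profile, their promoters were searched for the letters that 3 regulators of this list are known to bind. RefSeq windows of 300 bases (GRCm38.p6, 250 before to 50 after the start) matched 66 of the 83 members. The motifs were GCGCANGCG for NRF1, CCGGAAG for the ETS family, to which Gabpa belongs, and AAGATGGCG for YY1, on both strands. An NRF1 match lay in 30.3% of these members and in 14.3% of 10826 compared genes with a window. For ETS the shares were 24.2% and 18.8%, for YY1 10.6% and 3.34%, and for any of the 3 53.0% and 31.7%. A further motif, GGGCGG for Sp1, was in 39.4% and 66.4%. In BLEO-HPS1 against BLEO-WT, the 20 members with an NRF1 match had a median of 0.75 and the 44 without it 0.71, and after correction 0.09 and 0.26, the other way round. A match is a run of letters and not a shown site.

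The windows below, printed 5′ to 3′ on the gene's strand with NRF1, ETS and YY1 matches in capitals, are shown for 4 members with such matches. Ndufa11 (chr17:56717512-56717811, plus strand) had the highest ratio of BLEO-HPS1 to PBS-HPS1, Uqcr11 (chr10:80406772-80407071, minus strand) has NRF1 and ETS letters, Ndufs6 (chr13:73328433-73328732, minus strand) has NRF1 and YY1 letters, and Sdha (chr13:74350191-74350490, minus strand) has 3 NRF1 matches although its level was nearly the same in BLEO-HPS1 and PBS-WT. The matches in Ndufa11 overlap, since its letters read alike on both strands.
Ndufa11: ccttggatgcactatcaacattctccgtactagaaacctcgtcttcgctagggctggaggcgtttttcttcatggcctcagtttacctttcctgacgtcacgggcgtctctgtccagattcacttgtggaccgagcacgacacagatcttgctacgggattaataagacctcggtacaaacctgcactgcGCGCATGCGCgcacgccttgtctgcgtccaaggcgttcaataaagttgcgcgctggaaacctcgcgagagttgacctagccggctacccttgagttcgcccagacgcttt
Uqcr11: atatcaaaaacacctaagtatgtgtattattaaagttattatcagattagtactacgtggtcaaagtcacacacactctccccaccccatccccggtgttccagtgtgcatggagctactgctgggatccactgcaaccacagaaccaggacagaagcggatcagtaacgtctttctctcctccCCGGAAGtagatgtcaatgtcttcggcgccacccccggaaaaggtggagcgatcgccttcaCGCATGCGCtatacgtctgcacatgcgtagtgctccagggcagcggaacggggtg
Ndufs6: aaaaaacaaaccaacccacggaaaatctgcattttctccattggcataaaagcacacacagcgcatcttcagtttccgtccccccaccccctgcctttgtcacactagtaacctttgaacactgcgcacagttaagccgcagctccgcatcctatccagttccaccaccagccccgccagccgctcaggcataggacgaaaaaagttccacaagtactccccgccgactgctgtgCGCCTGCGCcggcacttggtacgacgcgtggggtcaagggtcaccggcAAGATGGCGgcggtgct
Sdha: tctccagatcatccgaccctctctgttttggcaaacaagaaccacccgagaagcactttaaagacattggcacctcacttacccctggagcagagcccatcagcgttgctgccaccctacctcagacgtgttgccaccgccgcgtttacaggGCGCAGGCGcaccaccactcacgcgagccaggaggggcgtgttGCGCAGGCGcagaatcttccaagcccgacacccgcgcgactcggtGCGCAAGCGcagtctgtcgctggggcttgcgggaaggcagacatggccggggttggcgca
Sdha, with 3 matches, and Ndufa11, with an overlapping pair, had ratios of -0.12 and 1.02 between the bleomycin libraries, and of 0.07 and 0.24 after correction.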

How the data were processed

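Sorted, IL-2-cultured lung ILC2s were sequenced from total RNA with a SMARTER mRNA-Seq kit, as 1 library for each of 4 groups. The authors deposited whole-number read counts per gene, not normalized. The aligner, the counter, the genome build and the annotation are not given in the sources used here, nor is the handling of reads shared with pseudogenes, of which several subunits have processed copies. Samples were grouped by their titles. Members and lists were chosen with earlier results of these data known.

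Counts were scaled by TMM in edgeR 4.0.16 (R 4.3.3) and put on a log2 CPM scale (prior count 2). The comparison took in genes at 1 CPM or more in any library. No test was run, since a group held 1 library. Each ratio had the median of all compared genes subtracted, and a gene at least 1.5-fold from it was called. The 95% intervals are exact (Clopper-Pearson) and cover counting error only. Transcript length and GC content came from GENCODE M21 (GRCm38), with the principal transcript of best support and then shortest. The loess correction used a span of 0.3. Fits were tested on simulated data. Alternatives were other scalings (DESeq2 1.42.0 size factors, upper quartile, total counts), priors, filters, a fold of 2 and the correction. Named genes were core subunits, isoform groups, the highest and lowest member per complex and comparison, members at least 2-fold in any comparison, and members under the filter, of which the text gives a part. The per-library difference between conditions cannot be told apart from differences between mice, sorts or preparations.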

Additional observations from a re-analysis of the deposited data

Results flagged for a closer look

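The ratio of Hps1-/- to WT lay on opposite sides of the typical gene with bleomycin and with PBS. Over all subunits the medians were 0.71 and -0.27, a difference of 0.98. By complex the differences were 1.02 for complex I (0.75 and -0.27), 0.68 for complex II (0.44 and -0.24), 1.06 for complex III (0.78 and -0.28), 0.99 for complex IV (0.69 and -0.30) and 0.98 for complex V (0.71 and -0.27). The same 2 medians were 0.86 and -0.27 for cytosolic ribosomal proteins, 0.55 and -0.22 for mitochondrial ribosomal proteins and 0.58 and -0.25 for glycolysis. The regulators stood the other way round, at -0.26 and 0.10, and the mitochondrial genome list was below 0 in both. With GC content and length corrected, the medians over all subunits were 0.22 and -0.08. By complex they then ran from 0.13 to 0.25 and from -0.17 to -0.05. With 1 library per group these differences were not tested.

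For 5 members the bleomycin ratio had opposite signs in the genotypes and was at least 1.5-fold in 1 of them. Ndufs4 also had opposite signs, at 0.37 and -0.01, without reaching that fold. In Hps1-/- and in WT cells it was 0.95 and -0.14 for Cox4i2 (a difference of 1.09), 0.26 and -0.63 for Cox6a2 (0.89), 0.60 and -0.28 for Ndufa4 (0.88), 1.24 and -0.05 for Ndufa4l2 (1.29), and -0.66 and 0.12 for Atp5s (-0.78). After the GC and length correction the signs stayed opposite for Ndufa4 (0.39 and -0.13) and Ndufa4l2 (0.09 and -0.36), and were the same for Cox4i2 (-0.25 and -0.42), Cox6a2 (-0.75 and -0.82) and Atp5s (0.26 and 0.64). The differences were not tested either, and Cox4i2, Cox6a2, Ndufa4l2 and Atp5s rested on 68 to 532 reads a library.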

How the results depend on the processing

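No paired analysis was possible because each group had 1 library, and leaving a replicate out was not possible for the same reason. Depth was not the main limit: the median half-width of a member's counting interval was 0.047 to 0.059 on the log2 scale in the 4 comparisons. The subunit medians and counts stayed within their limits under DESeq2 size factors, upper-quartile factors, total counts, a prior count of 0.5 and a minimum of 10 reads in every library. No subunit or complex median changed sign under any setting run.

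The correction for GC content and length moved 8 of 9 of them. The medians became 0.22 (BLEO-HPS1 against BLEO-WT), 0.50 (BLEO-HPS1 against PBS-HPS1), 0.21 (BLEO-WT against PBS-WT), -0.083 (PBS-HPS1 against PBS-WT) and 0.28 (difference of the bleomycin ratios), and the calls became 7 (BLEO-HPS1 against BLEO-WT), 29 (BLEO-HPS1 against PBS-HPS1) and 3 (PBS-HPS1 against PBS-WT), where 1 lower call gave way to 3 higher calls. With the longest transcripts, a choice made after seeing the data, these were 0.21, 0.46, 0.20, -0.091, 0.24, 10, 31 and 3. Without a filter the medians over 83 members were 0.66, 2.05, 0.45, -0.50 and 1.36, with 14 calls in BLEO-WT against PBS-WT and 17 in PBS-HPS1 against PBS-WT. This setting adds genes with few or no reads, which move the median of all genes. The calls without a filter and with the longest transcripts pool both directions and have no share of all genes beside them. They show only how far the number of calls moved with the setting. In BLEO-HPS1 against PBS-HPS1, Ndufs1 then stood at 0.118 in place of -0.62 and Atp5s at 0.0775 in place of -0.66. There the correction turned Cox4i2 from 0.95 to -0.2505 (-0.3022 with the longest transcripts) and Atp5s to 0.2628 (0.1079). At a fold of 2 the calls were 4 in BLEO-HPS1 against BLEO-WT, 0 in BLEO-WT against PBS-WT and 0 in PBS-HPS1 against PBS-WT, where a prior count of 10 or a limit to the 75 members with at least 10 CPM in every library also gave 0. Of 74 further values (medians of complexes and gene lists, and ratios of some named members), 65 moved under the correction and 2 took the other sign. These 74 do not cover every value given here. Of all called members, 3 changed sign in BLEO-HPS1 against BLEO-WT and 5 in BLEO-HPS1 against PBS-HPS1. The ILC2 marker medians changed sign in both comparisons too. Causes were not tested.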
